A study of Mus musculus with 800 samples.

Results

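Fgfr3, Gpr37l1, Ntsr2, F3, Vcam1, Pax6, Htra1 and Gpc5 are 8 of the 32285 genes in a table of single mouse brain nuclei. They were chosen by symbol, because earlier work on the same table had shown them to be abundant in nuclei with astrocyte RNA, so their levels by cell class and by vector are a description here and no test is given for them. All 8 were found in the table under 1 Ensembl identifier each. The nuclei came from C57Bl/6J mice that had received 1 of 20 adeno-associated virus vectors in the brain-penetrant PHP.eB capsid, at 5e11 vector genomes per mouse per the series design. From its own enhancer or promoter each vector drove H2B-SYFP2, a nuclear yellow fluorescent reporter, injected in young adulthood, and fluorescent nuclei were sorted 3 to 4 weeks later. Every label names the anterior lateral motor cortex. There are 40 nuclei for each vector, 800 in all, and each vector counts as 1 sample because the labels name no animal.

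The vectors are AiE0390m, AiE0391h, AiE0078h, AiE0140h, AiE0387m, AiE0401h, AiE0410m, AiE0445h_3xC2, AiE0447h, AiE0450h, AiE0452h, AiE0475m, AiE0600m, AiE0682h, AiE0743m_3xC2, AiE0779m, DLX2.0, hI56i, hSyn1 and CMV. Codes that begin with AiE name enhancers for which the labels give no target cell type. CMV is a general viral promoter, hSyn1 a promoter active in neurons, and DLX2.0 and hI56i carry enhancers of Dlx genes that are active in inhibitory neurons of the forebrain.

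Astrocytes are the glial cells that wrap synapses and blood vessels, take up transmitters and exchange signals with neurons and endothelium. Much of that exchange runs through molecules at their surface or secreted by them. Fgfr3 is a receptor tyrosine kinase for fibroblast growth factors, Gpr37l1 and Ntsr2 are G protein-coupled receptors, F3 (tissue factor) is the cell-surface receptor that starts blood coagulation, Vcam1 is an adhesion molecule bound by integrins, and Gpc5 is a membrane-anchored heparan sulphate proteoglycan. Htra1 is a secreted serine protease that acts in TGF-beta signalling, and Pax6 is the homeobox transcription factor among them.

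Depth ran from 70 to 901264 counts per nucleus, with a median of 260170.5, and 698 nuclei had at least 1000 genes detected. Each of these was placed in the class whose marker genes, none of them among the 8, had the highest mean log2(CPM + 1), where CPM is the gene's counts divided by all counts of the nucleus and multiplied by 1000000, with a lead of at least 2 over the next class. The astrocyte class held 97 nuclei (13.9%) of 10 vectors, the oligodendrocyte class 51, and neuronal classes 538, of which 249 were GABAergic, 104 glutamatergic, 165 striatal projection and 20 without a subclass. A further 2 nuclei were endothelial and 2 microglial, and 8 were left without a class. The 165 nuclei with markers of striatal projection neurons go against the label of every sample, which names cortex, while the series design also names striatum. Leaving out every run of 8 title numbers that held such a nucleus kept 77 astrocyte-class nuclei. Without those runs Gpr37l1 summed to 4268 CPM in the astrocyte class and 2.20 CPM in neurons, Fgfr3 to 669 CPM and 0.196 CPM, and Pax6 to 211 CPM and 26 CPM, where all runs together gave neuronal sums of 6.56, 1.05 and 13.5 CPM.

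The astrocyte class carried its own markers: all 10 had counts, their summed level had a median of 20368 CPM per nucleus (7455 to 34114), and only 2 of the 97 nuclei led the next class by less than 3. Markers of other cells were low. The 8 oligodendrocyte markers together had a median of 161 CPM (0 to 11180) and the 7 neuronal markers one of 162 CPM (0 to 3441). Of 5 endothelial markers Cldn5, Flt1 and Slco1a4 were at 0 in all 97 nuclei, of 5 oligodendrocyte precursor markers Pdgfra, Cspg4, C1ql1 and Neu4 were at 0, and of 4 ependymal markers Foxj1, Tmem212 and Ccdc153 were at 0. The remaining markers of these lists had counts, with medians of 0 and highest sums of 556, 331 and 692 CPM in that order. All 6 microglial and 4 of 6 mural and fibroblast markers had some counts, with medians of 0 and highest sums of 1688 and 1695 CPM. The part of such RNA in the levels below was not tested.

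The promoters of Gpr37l1, Ntsr2, F3 and Htra1 are shown because these 4 genes had the highest levels per kilobase of exon in the astrocyte class, so that a reader can compare what lies upstream of genes detected in nearly the same nuclei. Each is the 250 bases before a transcription start, on the gene's own strand, from RefSeq on GRCm38.p6. Capitals mark matches, on either strand, to the NFI half-site TTGGC, the SOX motifs ACAAAG and ACAATG, the RBPJ motif TGGGAA, the STAT motif TTCNNNGAA, the TATA box TATAAA and the AP-1 motif TGACTCA. Gpr37l1 lies at chr1:135167682-135167931 (minus strand), Ntsr2 at chr12:16653220-16653469, F3 at chr3:121723287-121723536 and Htra1 at chr7:130935953-130936202 (all plus strand).
Gpr37l1: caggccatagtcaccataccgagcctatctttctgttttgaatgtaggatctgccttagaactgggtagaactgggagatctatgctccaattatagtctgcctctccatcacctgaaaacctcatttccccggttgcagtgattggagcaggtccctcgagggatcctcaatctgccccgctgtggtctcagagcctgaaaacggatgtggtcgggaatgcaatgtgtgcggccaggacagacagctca
Ntsr2: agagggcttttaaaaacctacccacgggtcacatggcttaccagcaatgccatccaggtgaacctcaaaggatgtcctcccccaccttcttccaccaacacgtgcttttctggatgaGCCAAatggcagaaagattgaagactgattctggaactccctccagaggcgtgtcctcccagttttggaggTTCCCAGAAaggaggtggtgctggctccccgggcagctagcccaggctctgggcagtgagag
F3: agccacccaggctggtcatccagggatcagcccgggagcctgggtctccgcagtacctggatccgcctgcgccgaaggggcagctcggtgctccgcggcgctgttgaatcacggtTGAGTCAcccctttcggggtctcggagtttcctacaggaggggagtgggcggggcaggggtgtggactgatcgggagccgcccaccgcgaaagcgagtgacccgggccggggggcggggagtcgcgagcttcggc
Htra1: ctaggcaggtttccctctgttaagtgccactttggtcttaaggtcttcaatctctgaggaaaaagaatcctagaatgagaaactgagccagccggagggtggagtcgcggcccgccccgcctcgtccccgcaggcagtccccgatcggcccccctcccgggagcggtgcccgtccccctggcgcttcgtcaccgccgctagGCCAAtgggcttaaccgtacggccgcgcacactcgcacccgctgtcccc

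No motif was found in all 4 windows. The Gpr37l1 window held none of the 7. The Ntsr2 window held an NFI half-site and, nearer to the start site, a STAT motif that overlaps an RBPJ motif on the other strand. The F3 window held an AP-1 motif and the Htra1 window an NFI half-site. Among all 32851 promoter windows of the same length in RefSeq, 41.5% held the NFI half-site, 21.6% the RBPJ motif, 7.02% the STAT motif and 4.46% the AP-1 motif. Base composition also differed, with 52.0% G and C and 7 CpG sites for Gpr37l1, 55.2% and 4 for Ntsr2, 70.0% and 24 for F3, and 64.8% and 22 for Htra1, where the median window had 52.4% and 6. Of the 9 windows found for 7 of the 8 genes, 2 held the NFI half-site (Ntsr2 and Htra1), 1 the SOX motif ACAAAG (Pax6), which 16.5% of all windows hold, and 1 the TATA box letters (Gpc5), which 12.4% hold. The Gpc5 match lay on the other strand, in the part of the window far from the start site.

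All 8 genes had a higher summed level in the astrocyte class than in the oligodendrocyte class or in any neuronal class. Each was at least 10-fold above the sum over all neuronal classes, 8 of 8, where 6.39% of the 11637 genes past 10 CPM in either class were. Against the oligodendrocyte class 7 of 8 were, where 21% of 10604 genes were, and Htra1 was 8.84-fold higher. These are the values for which the genes were chosen. Pax6 was the gene nearest to the limit, at 13.7-fold above all neurons, and it was below 10-fold without the runs that held striatal projection neuron-class nuclei and in library series S40326 alone, where it had 76.3 CPM in the astrocyte class and 18.4 CPM in neurons. Every one of the 97 astrocyte-class nuclei had counts of at least 4 of the 8 genes, with a median of 6, and 10 nuclei had all 8. Among 538 neuronal nuclei 1 had 4 or more and 352 had none, and among 51 oligodendrocyte-class nuclei 0 had 4 or more and 31 had none. The class rule set mixed nuclei aside: of the 8 nuclei without a class 5 had 4 or more and 1 had all 8. An endothelial-class nucleus, number 9 of AiE0450h, also had all 8. The intervals given with shares are exact Clopper-Pearson intervals at 95%, which treat nuclei as independent. Those with summed CPM are exact Poisson intervals at 95%, which treat each read as an independent count. Reads of this method carry no molecule barcodes and can lie mostly in 1 nucleus, so the Poisson intervals are too narrow. Neither kind covers the spread between animals.

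**Figure D1:**
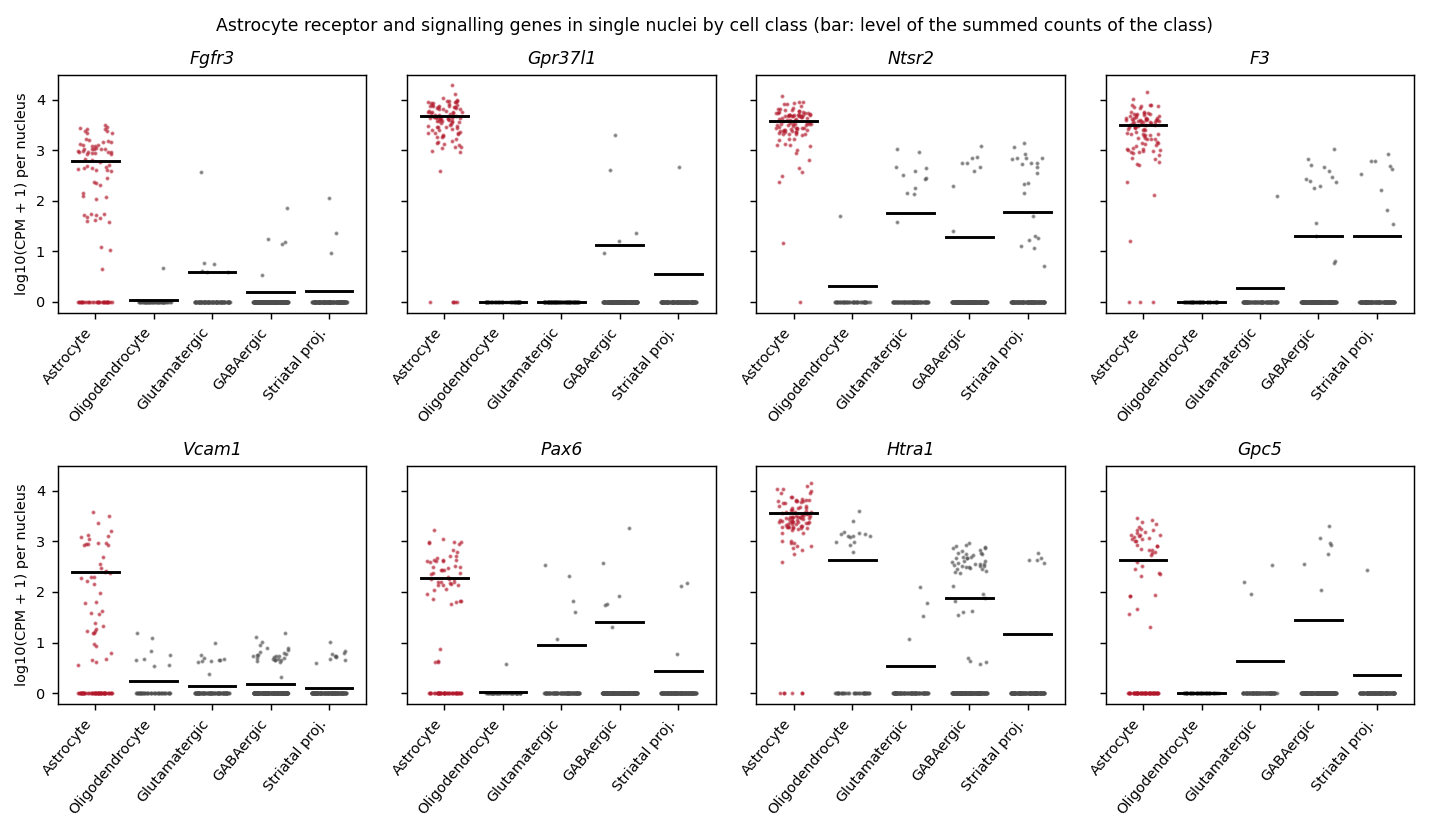
Level of each gene in every nucleus with at least 1000 genes detected, as log10(CPM + 1), with 1 point per nucleus (astrocyte class red, other classes grey) and a bar at the level of the summed counts of the class. Gpr37l1, Ntsr2, F3 and Htra1 were detected in 91 to 96 of 97 astrocyte-class nuclei, Fgfr3, Vcam1, Pax6 and Gpc5 in 41 to 67, and Htra1 also in 14 of 51 oligodendrocyte-class and 48 of 249 GABAergic nuclei.

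Gpr37l1 (ENSMUSG00000026424, chr1:135160234-135167681 on mm10, minus strand) had the highest level per kilobase of the 8 genes. It is a receptor for which prosaposin has been proposed as a ligand. Over the 8 vectors with at least 3 astrocyte-class nuclei its summed level ran from 2509 CPM in DLX2.0 through a median of 4970 CPM to 6934 CPM in AiE0743m_3xC2, with a mean of 4900 ± 1640 CPM (SD, n = 8 vectors). It had counts in 92 of 97 astrocyte-class nuclei (94.8%, 88.4 to 98.3%). Counts were found in 0 of 51 oligodendrocyte-class nuclei and 0 of 104 glutamatergic nuclei, which allows shares of up to 6.98% and 3.48%. The astrocyte-class level was 24334-fold above a floor of 3 counts in the oligodendrocyte class. That floor treats reads as independent, and the counts of 1 nucleus can exceed it, so folds over it are not lower limits. Over all 538 neurons the sum was 6.56 CPM, from 6 nuclei, and 72.9% of those counts lay in 1 GABAergic nucleus. That nucleus, number 39 of AiE0475m, had 7 of the 8 genes, and its mean astrocyte marker level was 6.02 beside a neuronal one of 9.85, both as log2(CPM + 1).

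Ntsr2 (ENSMUSG00000020591, chr12:16653382-16660227, plus strand), the low-affinity neurotensin receptor, had the smallest relative spread of the 8 genes over vectors. Its summed astrocyte-class level ran from 3140 CPM in DLX2.0 through a median of 3654 CPM to 4998 CPM in AiE0445h_3xC2, with a mean of 3942 ± 655 CPM (SD, n = 8), a coefficient of variation of 16.6% where the other 7 genes had 25.6 to 63.7%. It had counts in 96 of 97 astrocyte-class nuclei. In the oligodendrocyte class 1 nucleus had counts, with a sum of 1.03 CPM. Neurons had it more often than Gpr37l1, Fgfr3 or F3: 43 of 538 nuclei had counts (7.99%, 5.84 to 10.6%), with a median of 394 CPM in those nuclei. The summed level was 58.0 CPM in striatal projection neurons (22 of 165 nuclei), 57.1 CPM in glutamatergic neurons (12 of 104) and 18.3 CPM in GABAergic neurons (9 of 249). After each nucleus had been thinned to 150000 counts the shares of nuclei with counts were 98.9% in the astrocyte class, 13.7% in striatal projection neurons, 11.2% in glutamatergic neurons and 3.83% in GABAergic neurons. The nuclei outside the astrocyte class with Ntsr2 counts had a median astrocyte marker level of 0.963, where those without had 0.722, both as log2(CPM + 1).

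Fgfr3 (ENSMUSG00000054252, chr5:33721674-33737068, plus strand) was detected in fewer astrocyte-class nuclei, 67 of 97 (69.1%, 58.9 to 78.1%). Its summed level by vector ran from 268 CPM in AiE0600m through a median of 680 CPM to 788 CPM in DLX2.0, with a mean of 573 ± 206 CPM (SD, n = 8). Outside the class it was scarce, with 1 count in the oligodendrocyte class and 1.05 CPM over all neurons, from 15 nuclei, with 52.4% of those counts in 1 nucleus. The annotation gives an antisense transcript, G630022F23Rik, that shares 998 exon bases with Fgfr3, and the reads are not stranded, so reads of both cannot be told apart there. At equal depth 67.4% of astrocyte-class nuclei and at most 2.0% of nuclei of any other class compared had counts.

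F3 (ENSMUSG00000028128, chr3:121723537-121735048, plus strand), the receptor of coagulation factor VII, had counts in 94 of 97 astrocyte-class nuclei. Its summed level by vector ran from 2393 CPM in AiE0391h through a median of 3119 CPM to 4755 CPM in AiE0450h, with a mean of 3212 ± 822 CPM (SD, n = 8). No count was found in 51 oligodendrocyte-class nuclei, which puts the astrocyte class 16171-fold above the floor of 3 counts. Neurons summed to 18.9 CPM (28 of 538 nuclei), with 18.6 CPM in GABAergic, 19.5 CPM in striatal projection and 0.905 CPM in glutamatergic neurons.

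Vcam1 (ENSMUSG00000027962, chr3:116109949-116129688, minus strand), a ligand of alpha4 integrins, was uneven from nucleus to nucleus. Counts were found in 45 of 97 astrocyte-class nuclei (46.4%, 36.2 to 56.8%), the median nucleus had 0, and the highest had 3773 CPM. By vector the sum ran from 57.1 CPM in AiE0391h through a median of 271 CPM to 443 CPM in AiE0445h_3xC2, with a mean of 255 ± 140 CPM (SD, n = 8). Single nuclei carried much of these sums: 96.9% of the counts in DLX2.0, 87.7% in CMV and 83.4% in AiE0445h_3xC2 came from 1 nucleus each. In all other classes together Vcam1 had 172 counts, and 59.9% of them lay in 1 endothelial-class nucleus, at 281 CPM. That nucleus, number 9 of AiE0450h, had all 8 genes and a mean astrocyte marker level of 6.045 as log2(CPM + 1). In neurons and the oligodendrocyte class Vcam1 was scattered and low. The 48 neurons with counts held 56 counts together, the highest of them at 14.6 CPM, and the 8 oligodendrocyte-class nuclei with counts held 12. After thinning, the share of GABAergic nuclei with counts was 5.11% where it had been 10.4%, while that of astrocyte-class nuclei was 46.3% where it had been 46.4%. An antisense transcript, Gm43109, shares 61 exon bases with Vcam1.

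Gpc5 (ENSMUSG00000022112, chr14:115092215-116525179, plus strand) was detected in 41 of 97 astrocyte-class nuclei (42.3%, 32.3 to 52.7%). Glypicans bind growth factors and their receptors through heparan sulphate chains. By vector the sum ran from 123 CPM in AiE0391h through a median of 416 CPM to 997 CPM in AiE0450h, with a mean of 459 ± 286 CPM (SD, n = 8). None of 51 oligodendrocyte-class nuclei had a count, which puts the astrocyte class 2255-fold above the floor. In neurons the sum was 13.6 CPM, and it came mostly from 7 of 249 GABAergic nuclei (26.7 CPM), which had a median of 856 CPM each, as high as the 834 CPM median of astrocyte-class nuclei with counts. The antisense transcript Gm20713 shares 107 exon bases with Gpc5.

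Htra1 (ENSMUSG00000006205, chr7:130936111-130985660, plus strand) was found in several classes. In the astrocyte class it had counts in 91 of 97 nuclei, and the sum by vector ran from 1647 CPM in DLX2.0 through a median of 3714 CPM to 5459 CPM in AiE0743m_3xC2, with a mean of 3793 ± 1146 CPM (SD, n = 8). In the oligodendrocyte class 14 of 51 nuclei had counts (27.5%, 15.9 to 41.7%), with a median of 1296 CPM in those nuclei, and the sums ran up to 1724 CPM over 7 vectors, with a mean of 505 ± 605 CPM. The highest oligodendrocyte-class vector thus lay above the lowest astrocyte-class vector. GABAergic neurons had counts in 48 of 249 nuclei (19.3%, 14.6 to 24.7%) and a sum of 75.8 CPM, against 13.6 CPM in striatal projection neurons and 2.46 CPM in glutamatergic neurons. In those GABAergic nuclei the median was 354 CPM, lower than the 2929 CPM of astrocyte-class nuclei with counts. Of all Htra1 counts in the 800 nuclei 75.2% lay in the 97 astrocyte-class nuclei, where Fgfr3 had 91.4%, Gpr37l1 89.9% and Pax6 61.9%. In the annotation Fgfr2 overlaps Htra1 on the other strand, with 0 shared exon bases. Whether intron reads of either gene were counted for the other was not tested.

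Pax6 (ENSMUSG00000027168, chr2:105668900-105697364, plus strand) had the lowest level per kilobase of the 8 genes in the astrocyte class, with counts in 53 of 97 nuclei (54.6%, 44.2 to 64.8%). By vector the sum ran from 0 in AiE0445h_3xC2, whose 6 astrocyte-class nuclei had no count, through a median of 188 CPM to 305 CPM in CMV, with a mean of 161 ± 103 CPM (SD, n = 8). Neurons summed to 13.5 CPM over 14 of 538 nuclei, and 77.9% of those counts lay in 1 GABAergic nucleus of AiE0401h with 1880 CPM. The sums of neurons by vector ran up to 148 CPM for this gene, so astrocyte-class and neuronal vectors overlapped.

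Values of this method grow with transcript length, so the 8 genes were ranked per kilobase of exon. No source used here says whether reads in introns were counted, and if they were, exon length is not the right divisor. On that scale the summed astrocyte-class level was 2062 CPM per kb for Gpr37l1, 1288 for Htra1, 1230 for F3, 1220 for Ntsr2, 97.4 for Gpc5, 85.0 for Fgfr3, 28.5 for Vcam1 and 15.8 for Pax6. Over vectors the levels of Htra1 (1317 ± 398 CPM per kb), F3 (1271 ± 325) and Ntsr2 (1264 ± 210) did not differ beyond their spread (SD, n = 8), and neither did those of Gpc5 (103 ± 64.3) and Fgfr3 (80.1 ± 28.8). Gpr37l1, Htra1, F3 and Ntsr2 thus lay more than 10-fold above the other 4 genes on this scale.

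Summed over all 40 nuclei of a vector, the 8 genes followed how many astrocytes it held. In such sums fewer astrocytes and less RNA per astrocyte cannot be told apart. AiE0390m, with 30 nuclei that scored as astrocytes at any depth, had the highest level of 6 of the 8 genes, and of 4 within library series S40324 alone, where Ntsr2 was highest in AiE0391h (2610 CPM, with 2375 CPM in AiE0390m) and F3 in AiE0450h (2664 CPM, with 1874 CPM in AiE0390m). AiE0391h and CMV, with 16 each, were usually next. Gpr37l1 had 3781 CPM in AiE0390m, 1454 CPM in AiE0391h and 1685 CPM in CMV, and 1780 CPM in AiE0743m_3xC2 put that vector above both. Ntsr2 had 2546 CPM in AiE0390m, 1882 CPM in AiE0391h and 1596 CPM in CMV. Fgfr3 had 565 CPM in AiE0390m (551 to 580), 308 CPM in AiE0391h (297 to 319) and 324 CPM in CMV (314 to 335), so that the counting intervals of AiE0391h and CMV overlapped, as they did for Vcam1 and Htra1. Of the level summed over the 20 vectors these 3 held 65.3% for Fgfr3, 51.3% for F3 and 50.5% for Ntsr2.

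The exceptions were Pax6 and Gpc5. Pax6 was highest in AiE0391h (177 CPM), followed with overlapping intervals by AiE0390m (164 CPM) and CMV (150 CPM), and then by AiE0401h (133 CPM), where 99.9% of the counts lay in 1 nucleus. Gpc5 was highest in AiE0450h (258 CPM), followed by AiE0390m (223 CPM) and DLX2.0 (180 CPM), with 135 CPM in CMV and 59.8 CPM in AiE0391h. Vectors without an astrocyte-class nucleus showed little of most genes: hSyn1 had 0 counts of Gpr37l1 and Gpc5, and AiE0410m had 0 of Gpr37l1, F3, Pax6 and Gpc5 but 753 CPM of Htra1. Across the 20 vectors Pearson's r between the number of astrocyte-scored nuclei and the level was 0.97 for Fgfr3, 0.98 for Ntsr2 and 0.77 for Gpc5, the lowest of the 8. These r values are descriptions: the vectors fall into a few with many astrocytes and many with none, and both quantities come from the same nuclei.

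**Figure D2:**
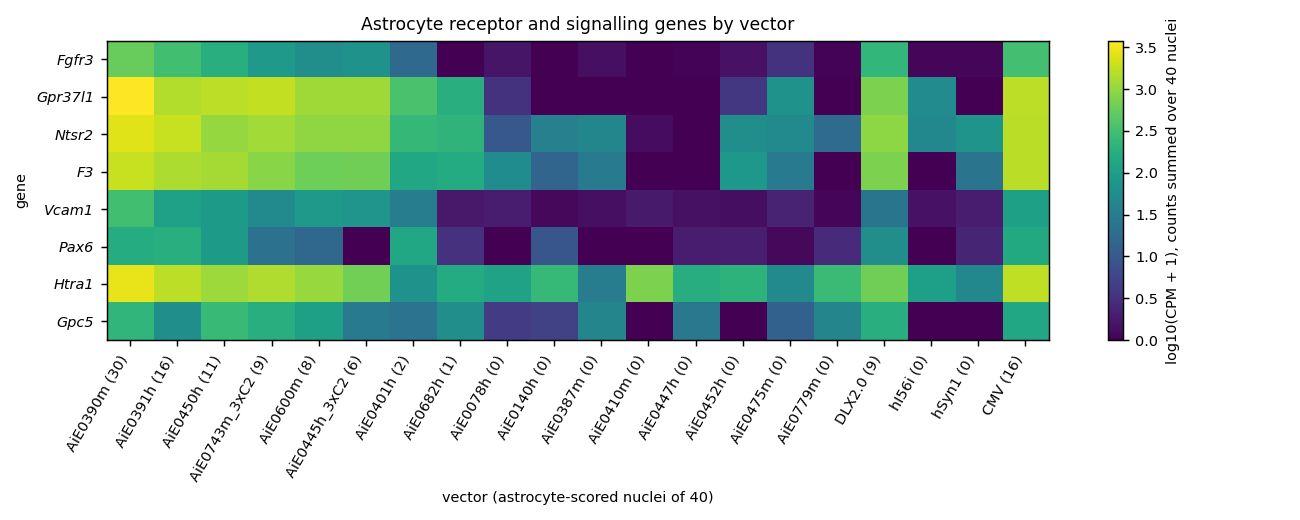
Level of each gene (rows) in the summed counts of the 40 nuclei of each vector (columns), as log10(CPM + 1) on a colour scale, with the number of astrocyte-scored nuclei in brackets. AiE0390m has the brightest cell for 6 genes, from 312 CPM of Vcam1 to 3781 CPM of Gpr37l1, and Htra1 is the only gene above 100 CPM in several vectors with 0 such nuclei.

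The levels within astrocyte-class nuclei were then set side by side for the 3 vectors that held the most of them, 24 nuclei of AiE0390m, 12 of AiE0391h and 16 of CMV. Each vector is 1 sample, so these differences have no replicate check and no test. Depth was alike, with medians of 288572.5, 311397.5 and 306088 counts per nucleus. For Ntsr2 the summed levels were 3517 CPM in AiE0390m, 3510 CPM in AiE0391h and 3594 CPM in CMV. Its medians over nuclei were 2900, 3456 and 2869 CPM in that order. Fgfr3 summed to 713 CPM in AiE0390m, 676 CPM in AiE0391h and 729 CPM in CMV, and in each of the 3 vectors its nuclei ranged from 0 to between 2583 and 3138 CPM. Its median nucleus had 850 CPM in AiE0390m, 352 CPM in AiE0391h and 80.5 CPM in CMV, so the order of the medians was not that of the sums.

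Htra1 summed to 3624 CPM in AiE0390m, 3385 CPM in AiE0391h and 3804 CPM in CMV. Gpr37l1 summed to 4462 CPM in AiE0390m, 3345 CPM in AiE0391h and 3794 CPM in CMV. F3 summed to 2506 CPM in AiE0390m, 2393 CPM in AiE0391h and 3636 CPM in CMV, 0.689 and 0.658 times the CMV level. Single nuclei of Gpr37l1 ranged from 1176 through a median of 4086 to 10948 CPM in AiE0390m, from 0 through 3004 to 6980 CPM in AiE0391h and from 0 through 3626 to 9594 CPM in CMV. Those of F3 ranged from 0 through 1880 to 7427 CPM in AiE0390m, from 902 through 1686 to 5398 CPM in AiE0391h and from 680 through 3955 to 10138 CPM in CMV. Nuclei of the 3 vectors overlapped for each of these genes, and no fold reached 2.

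Pax6 summed to 200 CPM in AiE0390m, 258 CPM in AiE0391h and 305 CPM in CMV, with counts in 15 of 24, 7 of 12 and 12 of 16 nuclei. The remaining pair of genes differed more. Vcam1 summed to 344 CPM in AiE0390m (331 to 359), 57.1 CPM in AiE0391h (49.8 to 65.2) and 238 CPM in CMV (225 to 252). The median nucleus had 0, 1.56 and 1.32 CPM in that order, and counts were found in 8 of 24, 6 of 12 and 8 of 16 nuclei. Gpc5 summed to 348 CPM in AiE0390m (334 to 362), 123 CPM in AiE0391h (112 to 135) and 305 CPM in CMV (290 to 320).

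Past 2-fold either way, 0 of the 8 genes differed between AiE0390m and CMV, where 72.4% of 8870 genes past 10 CPM in either vector did. Between AiE0391h and CMV Vcam1 (0.240-fold) and Gpc5 (0.403-fold) did, with 75.1% of 8186 genes, and between AiE0390m and AiE0391h the same pair did (6.03-fold and 2.83-fold), with 73.8% of 8754 genes. Among genes with a mean of at least 100 CPM over the vectors compared, a limit chosen after the values were seen, the shares were 43.5%, 48.6% and 45.3%. These folds moved with single nuclei, in both directions. Without the nucleus with the most counts in each vector, Vcam1 was 150 CPM in AiE0390m, 20 CPM in AiE0391h and 31.1 CPM in CMV, which moved the AiE0391h-to-CMV fold to 0.644 and the AiE0390m-to-CMV fold to 4.82. The AiE0390m-to-AiE0391h fold of Vcam1 was then 7.48, and Pax6 in AiE0390m was 0.499 times its CMV level. Gpc5 was then 277 CPM in AiE0390m, 21.4 CPM in AiE0391h and 214 CPM in CMV, with folds of 0.100 for AiE0391h over CMV and 12.9 for AiE0390m over AiE0391h. With nuclei of at least 500 genes kept, Vcam1 was 409 CPM in AiE0390m, 229 CPM in AiE0391h and 238 CPM in CMV, and none of the 3 pairs was past 2-fold for this gene.

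**Figure D3:**
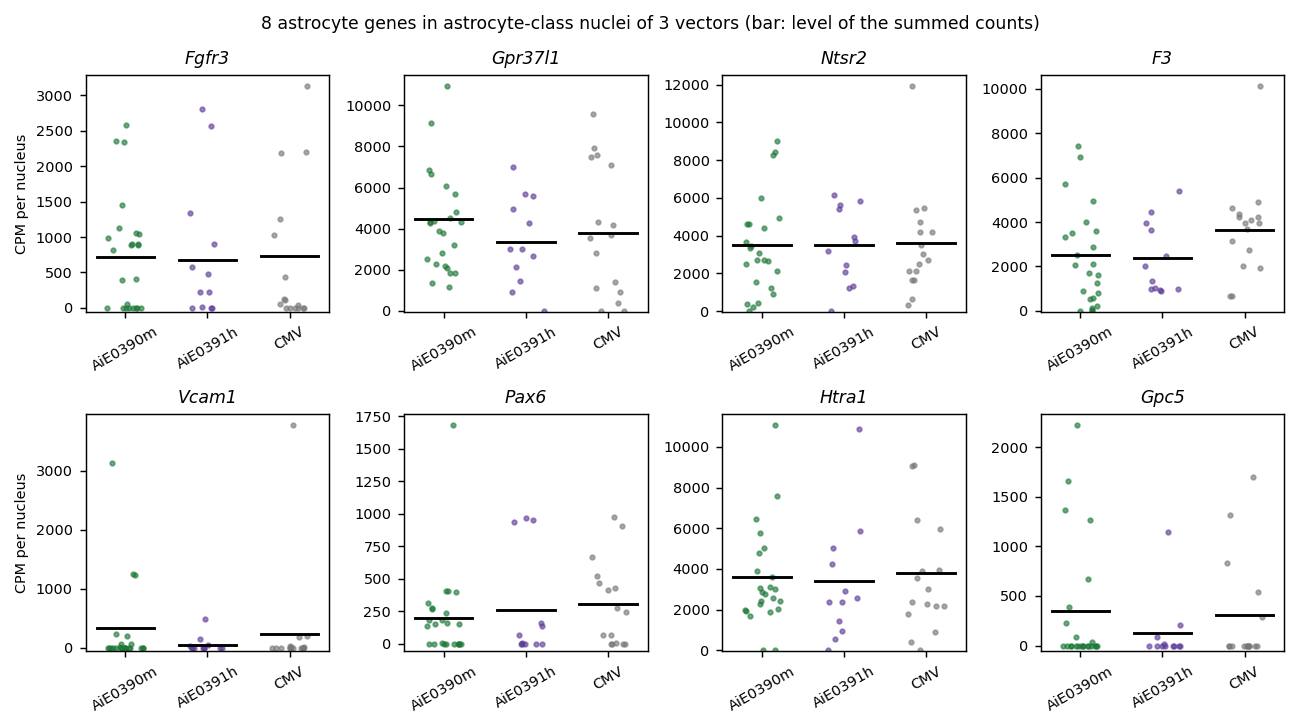
CPM of each gene in single astrocyte-class nuclei of AiE0390m (24 nuclei), AiE0391h (12) and CMV (16), with a bar at the level of the summed counts of the vector. Bars for Fgfr3, Ntsr2 and Htra1 lie close together, and the bars for Vcam1 are set by a few nuclei, the highest at 3125 CPM in AiE0390m and 3773 CPM in CMV.

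Library series moved with the vectors and with some of the levels. Of the astrocyte-class nuclei 58 came from series S40324 and 33 from S40326, as named in the library names. Gpr37l1 summed to 6371 CPM in S40326 and 3792 CPM in S40324, and Ntsr2 to 4472 CPM and 3351 CPM in the same order. Fgfr3 had 397 CPM in S40326 and 735 CPM in S40324, and Pax6 had 76.3 CPM and 250 CPM. Only AiE0450h (8 nuclei of S40326 and 2 of S40324) and AiE0401h (1 and 1) held astrocyte-class nuclei of both, so series and vector largely cannot be told apart. Within AiE0450h Gpr37l1 was 6009 CPM in S40326 and 4529 CPM in S40324, Fgfr3 644 CPM and 892 CPM, and Pax6 142 CPM and 434 CPM, the same directions as over all nuclei. F3 and Gpc5 ran against the order over all nuclei there: F3 had 3777 CPM in S40326 and 9742 CPM in S40324, and over all nuclei 3442 CPM and 3016 CPM. Gpc5 had 903 CPM in S40326 and 1475 CPM in S40324 within AiE0450h, and over all nuclei 583 CPM and 339 CPM. In the single nuclei of AiE0401h Fgfr3 (631 CPM in S40326 and 0 in S40324) and Ntsr2 (3334 CPM and 4636 CPM) also ran against it. So did Vcam1 (0 in S40326 and 1605 CPM in S40324) and Htra1 (793 CPM and 1962 CPM) there. Over all nuclei Vcam1 had 310 CPM in S40326 and 219 CPM in S40324, and Htra1 4589 CPM and 3261 CPM. The comparison of the 3 vectors held in S40324 and S40323 alone, since AiE0390m, AiE0391h and CMV had no astrocyte-class nucleus of S40326. Astrocyte-class nuclei also came in blocks of title numbers, with 8 runs of 8 numbers in which every nucleus past the filter was of that class. The labels do not say what the nuclei of a run share.

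Within the astrocyte class the genes were little correlated with each other. Over the 97 nuclei Pearson's r of log2(CPM + 1) for the 28 pairs ran from -0.19 (Fgfr3 and Ntsr2) to 0.25 (Gpr37l1 and Vcam1), with a median of 0.04. Over all 698 nuclei, where the split between astrocytes and other cells enters, the same pairs ran from 0.31 (Vcam1 and Pax6) to 0.87 (Gpr37l1 and F3), with a median of 0.53. Within the astrocyte class r with the log2 total count lay between -0.14 (Gpr37l1) and 0.18 (F3). Nuclei share library series and vectors, so these r values are descriptions without a test.

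**Figure D4:**
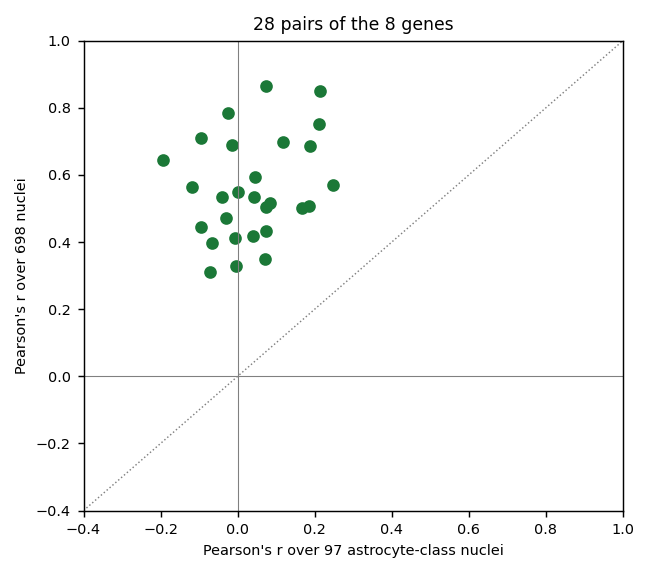
Pearson's r of log2(CPM + 1) for each of the 28 pairs of genes, over 97 astrocyte-class nuclei (x axis) and over 698 nuclei of all classes (y axis), with a dotted line at equality. All points lie above the line, between -0.19 and 0.25 on the x axis and between 0.31 and 0.87 on the y axis.

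Among 11215 genes detected in at least 5% of nuclei, likeness of pattern was measured as Pearson's r of log2(CPM + 1) over the 698 nuclei, and some of the genes most like each member are given here. Plpp3, a lipid phosphate phosphatase, was like Gpr37l1 (r = 0.89). Gpr37l1 itself was nearest to F3 (0.87), Ntsr2 (0.85) and Vcam1 (0.57), and it was also like Fgfr3 (0.71). Slc1a3, the glutamate transporter GLAST and a marker used for the classes, was nearest to Htra1 (0.76) and was like Pax6 (0.57). Slco1c1, a transporter of thyroid hormone, was nearest to Gpc5 (0.55) and the second for Vcam1 (0.53).

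Other genes of the same pathways, which are not among the 8, were tested. Their lists were drawn up with earlier results of these data known, and a gene can pass the filter on low counts through 1 class alone. For both reasons their counts are not independent evidence of a direction. Of 173 genes in 8 lists, 91 passed the filter on low counts in the comparison of astrocyte-class with neuronal sums of the same vector (8 vectors, edgeR's quasi-likelihood test with vector as a block, Benjamini-Hochberg adjusted over 9510 genes, threshold 0.05). In the astrocyte class 20 were higher (22%, where 3.73% of all genes tested were) and 10 were lower (11%, where 17.8% were). Of the transcription factors 10 of 18 tested genes were higher. The FGF list had none of 19 higher and 1 lower by edgeR, 1 higher and 4 lower at an unadjusted p under 0.05, and 4 higher and 6 lower by DESeq2. The median fitted log2 fold change was 4.51 for the transcription factors and -1.68 for the FGF list, beside -2.51 over all genes tested. Astrocyte-class nuclei had a median of 1432 genes detected, where all 800 nuclei had 2576.5.

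Among transcription factors Id3, an inhibitor of basic helix-loop-helix factors, averaged 566 ± 383 CPM in the astrocyte class and 1.09 ± 3.08 CPM in neurons (SD, n = 8 each), a log2 fold change of 12.78 ± 1.28 (SE) with an edgeR adjusted p of 1.1e-06. Sox9, a factor needed to make astroglia, averaged 217 ± 81.1 CPM in the astrocyte class and 3.52 ± 6.92 CPM in neurons (log2 fold change 10.55 ± 1.86, edgeR adjusted p = 0.00059). Tcf7l2, an effector of Wnt signalling, averaged 102 ± 49.8 CPM in the astrocyte class and 0.278 ± 0.682 CPM in neurons (9.92 ± 1.87, edgeR adjusted p = 0.0010). All 3 were higher in the astrocyte class in 8 of 8 vectors. Pax6, the transcription factor among the 8 genes, averaged 161 ± 103 CPM in the astrocyte class and 8.59 ± 14.6 CPM in neurons of the same vectors.

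The other receptors of the Fgfr3 family did not pass the test against neurons. Fgfr1 averaged 118 ± 137 CPM in the astrocyte class and 23.1 ± 22.9 CPM in neurons, a log2 fold change of 1.98 ± 1.22 (SE) that did not pass with edgeR (adjusted p = 0.26) and passed with DESeq2 (adjusted p = 0.023). Fgfr2 averaged 79.5 ± 89.9 CPM in the astrocyte class and 28.4 ± 32.9 CPM in neurons (0.59 ± 1.83, edgeR adjusted p = 0.84). The 1 FGF gene that passed was Fgf9, a growth factor, lower in the astrocyte class (edgeR adjusted p = 0.0080). It had 0 counts in the 8 astrocyte-class sums and 45.1 ± 37.7 CPM in neurons. The neuronal sum lay 479-fold above a floor of 3 counts in the astrocyte class. Here too the counts of 1 nucleus can exceed the floor, so this fold and those over the floor below are not lower limits. Fgfr4 had no count in astrocyte-class, oligodendrocyte-class or neuronal nuclei.

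For Gpr37l1 and Ntsr2, ligands and relatives were compared. Psap, the precursor of the saposins, averaged 854 ± 275 CPM in the astrocyte class and 262 ± 140 CPM in neurons, higher in 8 of 8 vectors (log2 fold change 1.87 ± 0.44, edgeR adjusted p = 0.0051). Ntsr1 and Nts, the other neurotensin receptor and neurotensin itself, had 0 counts in the astrocyte class, where the floor of 3 counts is 0.102 CPM. They had 0.710 and 4.70 CPM in the summed neurons. Of the other G protein-coupled receptors S1pr1, a sphingosine-1-phosphate receptor, averaged 1780 ± 415 CPM in the astrocyte class and was higher there (edgeR adjusted p = 1.3e-08). It had 0 counts in the 8 neuronal sums, and its astrocyte-class sum lay 28457-fold above the floor of 3 counts in neurons. Adora2b, an adenosine receptor, averaged 204 ± 87.4 CPM in the astrocyte class and 0 in neurons (edgeR adjusted p = 0.00016). Its astrocyte-class sum lay 3475-fold above the same floor in neurons. Ednrb, an endothelin receptor, averaged 486 ± 267 CPM in the astrocyte class and 2.85 ± 7.98 CPM in neurons (12.05 ± 1.30, edgeR adjusted p = 2.9e-06). In that list 5 of 15 tested genes were higher and 4 lower by edgeR, where 3.73% and 17.8% of all genes tested were. DESeq2 called 6 higher and 7 lower. The 4 lower by edgeR were Grm5, Cnr1, Gabbr2 and Adrb1, named after their values were seen. Adrb1 was not called without the vector block (edgeR adjusted p = 0.32) or with equal numbers of nuclei (0.089), Gabbr2 was not called in the same settings (0.22 and 0.14), and Cnr1 was not called without the block (0.051). Adrb1 was also not called with no filter beyond 1 count (edgeR adjusted p = 0.094) or a minimum of 500 genes (0.098), and was called by DESeq2 (adjusted p = 5.8e-05).

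For F3, 2 of the 18 genes in the coagulation and protease list passed the filter on low counts. Both were higher, where 3.73% of all genes tested were. A gene can pass this filter through the class where it is high alone, so these 2 calls do not describe the list. Serpine2, a secreted protease inhibitor, averaged 1345 ± 611 CPM in the astrocyte class and 120 ± 101 CPM in neurons (log2 fold change 3.83 ± 0.48, edgeR adjusted p = 1.9e-05). Serpinh1, a collagen chaperone, averaged 45.5 ± 25.8 CPM in the astrocyte class and 0.462 ± 1.31 CPM in neurons (9.80 ± 2.22, edgeR adjusted p = 0.0042). Tfpi, the inhibitor of the tissue factor pathway, and F2r, the thrombin receptor, had 0 counts in the astrocyte class.

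For Vcam1 1 of 7 tested adhesion genes was higher by edgeR, where 3.73% of all genes tested were, and DESeq2 called 3 higher and 1 lower. The gene called by edgeR was Itga6, an integrin subunit. Itga6 averaged 247 ± 191 CPM in the astrocyte class and 10.5 ± 15.8 CPM in neurons (log2 fold change 6.71 ± 1.81, edgeR adjusted p = 0.011). Of the integrin that binds Vcam1, Itgb1 averaged 111 ± 120 CPM in the astrocyte class and 40.9 ± 19.5 CPM in neurons (0.36 ± 1.31, edgeR adjusted p = 0.86), and Itga4 summed to 6.41 CPM in the astrocyte class, from 1 nucleus, and 1.82 CPM in neurons.

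For Gpc5 the glypicans, syndecans and heparan sulphate genes had 1 of 13 tested genes higher and 4 lower by edgeR, where 3.73% and 17.8% of all genes tested were. DESeq2 called 3 higher and 6 lower. Sdc4, a syndecan, averaged 161 ± 116 CPM in the astrocyte class and 0 in neurons (edgeR adjusted p = 0.00051). Its astrocyte-class sum lay 2788-fold above the floor of 3 counts in neurons. Sulf2, a heparan sulphate sulfatase, and Ndst3, a heparan sulphate sulfotransferase, were lower in the astrocyte class (edgeR adjusted p = 0.0027 and 0.0037). They had 0 counts in the astrocyte class and 98.7 ± 62.8 and 90.9 ± 63.3 CPM in neurons. Their neuronal sums lay 1005-fold and 844-fold above the floor in the astrocyte class. Gpc6 averaged 122 ± 60 CPM in the astrocyte class and 33.3 ± 31 CPM in neurons, higher in 8 of 8 vectors, but did not pass with edgeR (3.07 ± 1.49, adjusted p = 0.15) and passed with DESeq2 (adjusted p = 0.0020) and with equal numbers of nuclei (edgeR adjusted p = 0.016). Of the other glypicans in the summed astrocyte class Gpc2 had 11.4 CPM, Gpc4 9.33 CPM, Gpc1 0.678 CPM and Gpc3 0 counts.

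For Htra1 the protease family and TGF-beta/BMP list had 1 of 16 tested genes higher and 1 lower by edgeR, where 3.73% and 17.8% of all genes tested were. DESeq2 called 2 higher and 9 lower, beside 659 and 4622 of all 9510 genes. The median fitted log2 fold change was -3.78 for the list and -2.51 over all genes tested. Bmpr1b, a BMP receptor, averaged 167 ± 138 CPM in the astrocyte class and 7.57 ± 19.4 CPM in neurons (log2 fold change 9.42 ± 1.95, edgeR adjusted p = 0.0023), a call lost without the vector block (edgeR adjusted p = 0.10). Smad1, a transducer of BMP signals, averaged 34.2 ± 87.9 CPM in the astrocyte class and 59.4 ± 38.4 CPM in neurons (-7.69 ± 2.31, edgeR adjusted p = 0.021), lower in 7 of 8 vectors, and this call was lost without the block (edgeR adjusted p = 0.84) and with equal numbers of nuclei (edgeR adjusted p = 0.083). Htra2 averaged 28.8 ± 48.3 CPM in the astrocyte class and 22.8 ± 13.8 CPM in neurons (-3.61 ± 3.28, edgeR adjusted p = 0.45, DESeq2 adjusted p = 0.024), and Htra3 summed to 11.8 CPM in the astrocyte class and had 0 counts in neurons.

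Fitted fold changes of genes with sums at 0 in some vectors depend on those zeros and can lie far from the ratio of the means, as for Smad1. Without the runs that held striatal projection neuron-class nuclei 13 of the listed genes were higher and 2 lower, and DESeq2 called 34 higher and 30 lower. The only reactive astrocyte gene past the filter was Stat3, with a log2 fold change of -3.39. It was not called by edgeR (adjusted p = 0.43) and was called lower by DESeq2. Gfap summed to 16.4 CPM in the astrocyte class.

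**Figure D5:**
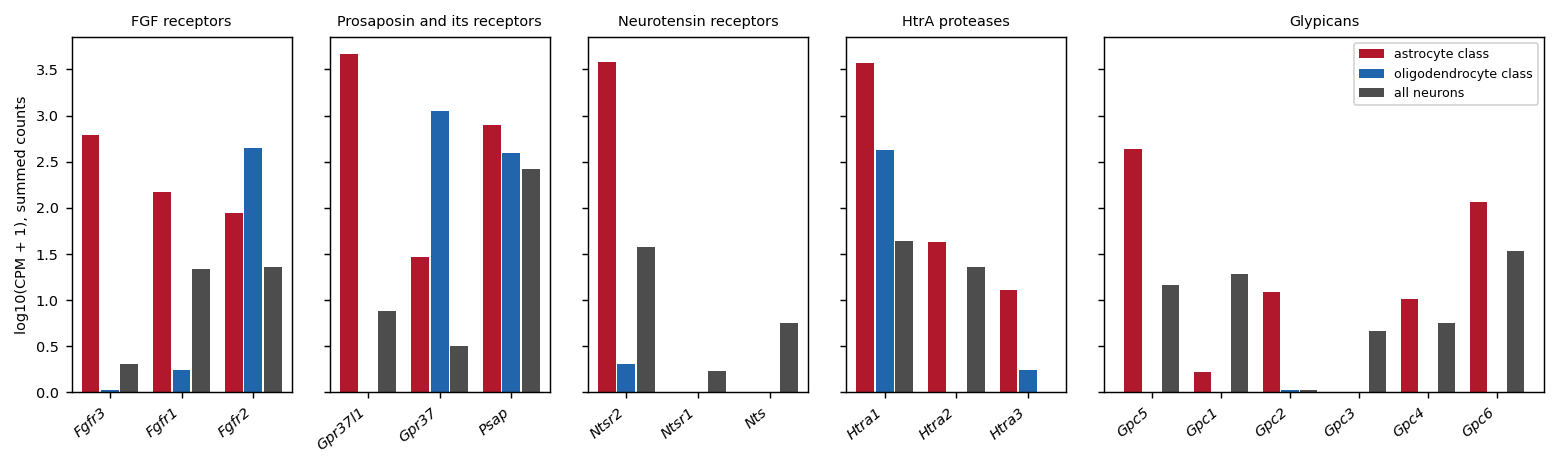
Summed level of receptors, ligands, proteases and glypicans related to the 8 genes in the astrocyte class, the oligodendrocyte class and all neurons, as log10(CPM + 1) with bars from 0. Gpr37l1 stands at 4678 CPM in the astrocyte class where Gpr37 stands at 28.1 CPM, and in the oligodendrocyte class Gpr37 stands at 1110 CPM and Fgfr2 at 447 CPM.

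Gpr37 and Fgfr2, relatives of Gpr37l1 and Fgfr3, had higher means in the oligodendrocyte class than in the astrocyte class, and neither difference passed the test. Only DLX2.0 held at least 3 nuclei of both glial classes, so the block could not be fitted and 8 astrocyte-class sums were compared with 7 oligodendrocyte-class sums without it. Gpr37 averaged 55.3 ± 124 CPM in the astrocyte class and 1237 ± 550 CPM in the oligodendrocyte class (SD, n = 8 and 7; log2 fold change -3.88 ± 1.66, edgeR adjusted p = 0.21), with counts in 3.09% of astrocyte-class nuclei. Fgfr2 averaged 79.5 ± 89.9 CPM in the astrocyte class and 501 ± 295 CPM in the oligodendrocyte class (-1.92 ± 1.02, edgeR adjusted p = 0.40). Fgfr1 was higher in the astrocyte class, at 118 ± 137 CPM where the oligodendrocyte class had 0.346 ± 0.916 CPM (8.27 ± 1.92, edgeR adjusted p = 0.0041). Gpc6, with 0 counts in the oligodendrocyte class, was higher in the astrocyte class (edgeR adjusted p = 0.00046). Its astrocyte-class sum lay 520-fold above the floor of 3 counts in the oligodendrocyte class. Of the 55 listed genes tested by edgeR 21 were higher in the astrocyte class (38.2%, where 7.74% of 5092 genes were) and 0 lower, where 1.79% of all genes were, with 1 lower at an unadjusted p under 0.05 and 0 by DESeq2. Genes with 0 counts in the oligodendrocyte class, such as Gpc6, passed the filter on low counts through the astrocyte class alone. The 21 of 55 are therefore not evidence of a direction in the lists.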

How the data were processed

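RNA of single sorted nuclei was amplified with SMART-Seq v4 and made into Nextera XT libraries, per the labels' protocols. The authors deposited whole-number read counts per gene, not normalized. STAR 2.7.2a and mm10 are named in the submitters' processing notes, while no source used here gives the annotation or counting rule. Of 2501 nuclei in the table, 1701 have no sample label and were not used. The reads carry no molecule barcodes, so Poisson intervals on summed counts treat amplified copies as independent and are too narrow.

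Counts were scaled to CPM and nuclei classed by marker scores. Members and gene lists were chosen with earlier results of these data known, and the class rule was settled on these data. The 8 genes have no test. Listed genes were tested on sums per vector and class with edgeR 4.0.16 (R 4.3.3; TMM, filterByExpr, quasi-likelihood, vector as block), and DESeq2 1.42.0 was an alternative. The SE beside an edgeR log2 fold change is its absolute value divided by the square root of the F statistic, not a separately estimated error. Labels name no animals, so p-values do not measure the spread between animals. Against neurons they measure how the class difference varies over vectors, and against oligodendrocytes, without the block, how the sums vary between vectors. Genes named from the lists are relatives and ligands of the 8 genes and those with the largest fitted change among the called genes of a list. The tests were checked on simulated data. 1 gene among those most like the members is not reported here.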

Additional observations from a re-analysis of the deposited data

Results flagged for a closer look

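Among nuclei with fewer than 1000 genes detected, which the comparisons left out, 11 scored as astrocytes, 6 of them of AiE0390m and 4 of AiE0391h. They had a median of 218069 counts and 920 genes. All 8 genes were present in their summed counts above the level of 77 oligodendrocyte-scored nuclei below the same minimum, or above 0 where those had none. Gpr37l1 summed to 5148 CPM in the astrocyte-scored nuclei and 19.9 CPM in the oligodendrocyte-scored ones, F3 to 3271 CPM and 0, and Ntsr2 to 2563 CPM and 4.39 CPM. Htra1 summed to 2946 CPM in the astrocyte-scored nuclei and 611 CPM in the oligodendrocyte-scored ones. Fgfr3 summed to 608 CPM and 0.0488 CPM in the same order, Vcam1 to 778 CPM and 0.732 CPM, and Pax6 to 565 CPM and 1.02 CPM. Gpc5 had 42.7 CPM in the astrocyte-scored nuclei, from 1 of 11, and 0 in the oligodendrocyte-scored ones.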

How the results depend on the processing

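With a minimum of 2000 genes 1 astrocyte-class and 0 oligodendrocyte-class nuclei were left, Vcam1 and Pax6 were at 0 in that nucleus, and 6 of the 8 genes were at least 10-fold above all neurons. Otherwise the number at least 10-fold above all neurons was 8 with each vector left out in turn and 7 both without the runs that held striatal projection neuron-class nuclei and in series S40326 alone, and the number above oligodendrocytes was 7 to 8, with 8 in series S40326 alone and when AiE0410m or AiE0779m was left out. With a minimum of 500 genes 1 of the 8 genes was past 2-fold in a pair of the 3 vectors, where 2 were with the minimum of 1000. Of the listed genes 30 were called against neurons. DESeq2 called 64, the fit without the runs of striatal projection neuron-class nuclei, chosen after seeing the data, called 15, and the fit without the vector block called 23. Leaving out 1 vector at a time gave 28 to 36. Against oligodendrocytes 21 were called, 73 with no filter beyond 1 count, and 16 to 29 with 1 vector left out. The cause of these shifts was not tested. Of the single values of genes named by rule 9 summed levels moved by more than the spread between vectors. Of their fold changes, those of the 8 genes between vectors included, 6 went past the threshold that had not been past it, and 7 no longer were. The vector block already pairs the classes of each vector. By replicate number, no paired analysis was possible because these numbers in the titles only count the nuclei within a vector. Equal numbers of nuclei could not be run against oligodendrocytes. For Gpr37l1, F3 and Gpc5, 0 of 51 oligodendrocyte-class nuclei with a count allows up to 6.98% of nuclei with a count, not of nuclei expressing the gene.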
